A study of Rattus norvegicus with 18 samples.

Results

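Squamous cell carcinoma (SCC) epithelia of the rat tongue were compared with normal tongue epithelia over 6 of the 18 arrays of the series, chosen by the stage and the tissue layer given in their labels, with 3 samples in each group. All animals were male Sprague Dawley rats, whose age is not given in the labels. The rats of the SCC group drank water with 0.002% 4-nitroquinoline 1-oxide (4NQO), a DNA-damaging carcinogen, and were killed between week 14 and week 22, once lesions could be seen on the tongue. The normal rats drank distilled water. Each sample pooled the tissue of 3 rats, the epithelial layer was lifted off the connective tissue after digestion with the protease dispase II, and its RNA was read on an Affymetrix rat array. Whether the 3 pools of a group were made of different rats is not stated, and the p-values therefore reflect the spread of 3 pools per group, part of which may be technical. The other 12 arrays were dysplasia epithelia (3 samples) and the fibroblasts of the 3 stages (3 samples each).

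The surface of the tongue is a stratified squamous epithelium. Basal cells on the basement membrane divide, and their daughters move up, switch their keratins and build a cornified envelope, a shell of cross-linked proteins and lipids under the membrane. The dorsal tongue of rodents also carries filiform papillae, small horny cones that use keratins and keratin-associated proteins otherwise known from hair. 4NQO is turned over in the cell to a form that binds DNA and to oxidising products, and given in drinking water it brings the tongue through dysplasia to SCC.

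Values below are log2 of the deposited signal, so a difference of 1 is a factor of 2. They are given for samples 1, 2 and 3 of each group in this order. A gene was called when the adjusted p of limma (Benjamini-Hochberg, over all 31042 probe sets) was under 0.05, and "rose" and "fell" are used only of called genes. With 3 samples a group the smallest p of an exact permutation test is 0.10, so none was run on single genes.

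The epithelial markers were high in both groups. The mean of 18 epithelial marker genes was 12.73, 12.68 and 12.83 in SCC epithelia, against 12.87, 12.77 and 12.77 in normal epithelia, with 1 gene higher (Itgb4, the hemidesmosome integrin) and 1 lower (Cldn1, a tight junction claudin, not called without SCC epithelia 2 and normal epithelia 2). Krt5, a keratin of the basal layer, read 13.30, 13.46 and 13.57 in SCC epithelia, against 13.36, 13.28 and 13.25 in normal epithelia. Markers of cells from below the epithelium differed between the samples of a group. The 17 fibroblast markers averaged 9.03, 11.04 and 7.20 in SCC epithelia, against 6.28, 7.67 and 6.21 in normal epithelia. SCC epithelia 2 was thus the highest and SCC epithelia 3 the lowest of the SCC samples, and normal epithelia 2 overlapped with SCC epithelia 3. The 18 macrophage markers averaged 8.53, 9.47 and 7.22 in SCC epithelia, against 6.16, 6.02 and 6.24 in normal epithelia, with no overlap. Smooth muscle markers averaged 7.32, 7.81 and 6.02 in SCC epithelia, against 5.67, 7.15 and 5.60 in normal epithelia, where normal epithelia 2 stood apart. Of the 31 gene lists below 21 likewise had their highest SCC mean in SCC epithelia 2 and their lowest in SCC epithelia 3, and the part of the markers in them was not tested. Some of these lists share genes with the marker lists. Results are also given without SCC epithelia 2 and normal epithelia 2 where that ends a call or moves a count by over 1.5 times. In bulk samples, more cells of a type and more RNA per cell cannot be told apart.

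**Figure D1:**
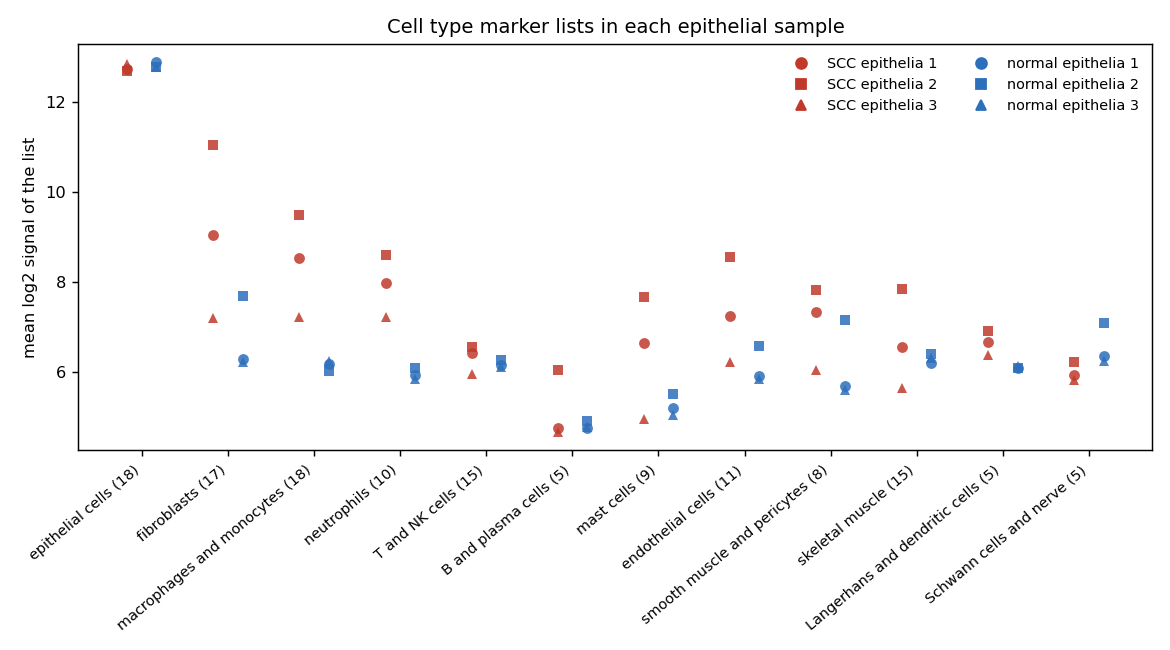
Mean log2 signal (vertical axis) of each cell type marker list (horizontal axis, number of measured genes in parentheses) in the 3 SCC epithelia (red) and the 3 normal epithelia (blue), with 1 marker shape per sample number. Epithelial markers lay between 12.68 and 12.87 in all 6 samples, while SCC epithelia 2 (squares) was highest for fibroblast and macrophage markers.

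Over all 14217 genes read on 1 probe set each, 17.3% were called higher and 17.6% lower. Of 17 fibroblast markers 3 rose, 11 rose without SCC epithelia 3, 6 without normal epithelia 2, and 7 without both SCC epithelia 2 and normal epithelia 2. Of 18 macrophage markers 12 rose (66.7%), and 11 without those 2 samples. Tyrobp, a signalling adaptor of myeloid cells, was 10.44, 11.25 and 9.15 in SCC epithelia, against 5.98, 5.97 and 6.51 in normal epithelia, while the tissue macrophage marker Adgre1 was 5.91, 8.25 and 5.19 in SCC epithelia, against 5.46, 5.74 and 5.29 in normal epithelia, high in SCC epithelia 2 only, without a call. Jchain, of plasma cells, was 4.95, 8.55 and 5.19 in SCC epithelia, against 4.50, 4.58 and 4.75 in normal epithelia, again high in SCC epithelia 2 only and not called (adjusted p = 0.15). Mast cell tryptase Tpsab1 was 8.22, 8.97 and 4.76 in SCC epithelia, against 5.26, 5.46 and 5.11 in normal epithelia, high in SCC epithelia 1 and 2 and at the normal level in SCC epithelia 3. Of 9 mast cell genes 1 was called, Mcpt10 (adjusted p = 0.0443, with overlap), and 5 were called without SCC epithelia 3. The Mcpt10 call was lost without any other single epithelial array, and without SCC epithelia 2 and normal epithelia 2 together. Of 11 endothelial genes 1 was called, Emcn (adjusted p = 0.0466, with overlap), 9 without SCC epithelia 3, and 2 without SCC epithelia 2 and normal epithelia 2. The Emcn call was lost without any single epithelial array other than SCC epithelia 3 or normal epithelia 2. Of 15 T and NK cell genes 4 rose and 3 fell, with 2 higher without normal epithelia 1, normal epithelia 3 or SCC epithelia 1 and 1 higher without SCC epithelia 2, alone or together with normal epithelia 2. Cd3g, a chain of the T cell receptor complex, was 7.74, 7.77 and 6.83 in SCC epithelia, against 6.30, 6.25 and 6.06 in normal epithelia, a change of 1.25 (SE 0.26, adjusted p = 0.00793) that was not called without SCC epithelia 2 and normal epithelia 2. Of 15 skeletal muscle genes 2 fell (13.3%), Myoz1 (-1.27) and Mb (-1.14), a share below that over all genes. The other 13 were not called, the median change was 0.33, and 3 rose without SCC epithelia 3. The list averaged 6.5, 7.8 and 5.6 in SCC epithelia, against 6.2, 6.4 and 6.3 in normal epithelia.

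The SCC epithelia differed broadly from the normal epithelia. They had far more RNA of the alarmin S100a9, the cell cycle inhibitor locus Cdkn2a, the chemokine Ccl2 and the collagenase Mmp13, and far less of the keratin-associated proteins Krtap1-1 and Krtap1-5, the monooxygenase Fmo2 and the hair-type keratins Krt33b and Krt86. Of 31042 probe sets 9267 were called (29.9%), 3898 higher (12.6%) and 5369 lower (17.3%). With 1 probe set per gene, 4969 of 14217 genes were called (35.0%), 2463 higher (17.3%) and 2506 lower (17.6%), and the counts of marker and gene lists are read against these shares. In 14740 probe sets (47.5%) the groups did not overlap. The methods name a fold of at least 2 or of at least 1.5. With the first and an unadjusted p under 0.05, 2762 probe sets passed (8.9%), 1534 higher (4.94%) and 1228 lower (3.96%), and with the second 7025 (22.6%), 3250 higher (10.5%) and 3775 lower (12.2%). Of the called probe sets 42.1% were higher, and 51.6% were higher with the arrays aligned on spike-in controls, where the median change over all probe sets was -0.03 in place of -0.09. The methods name a t-test among their general statistics, without saying that it was used on the arrays. Run here with the same adjustment, this t-test called 4631 probe sets. It ended the call of 108 of the 225 called genes examined one by one, among them Postn, Col12a1, Cxcl13, C1s, Slfn4 and Crym of the largest changes.

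**Figure D2:**
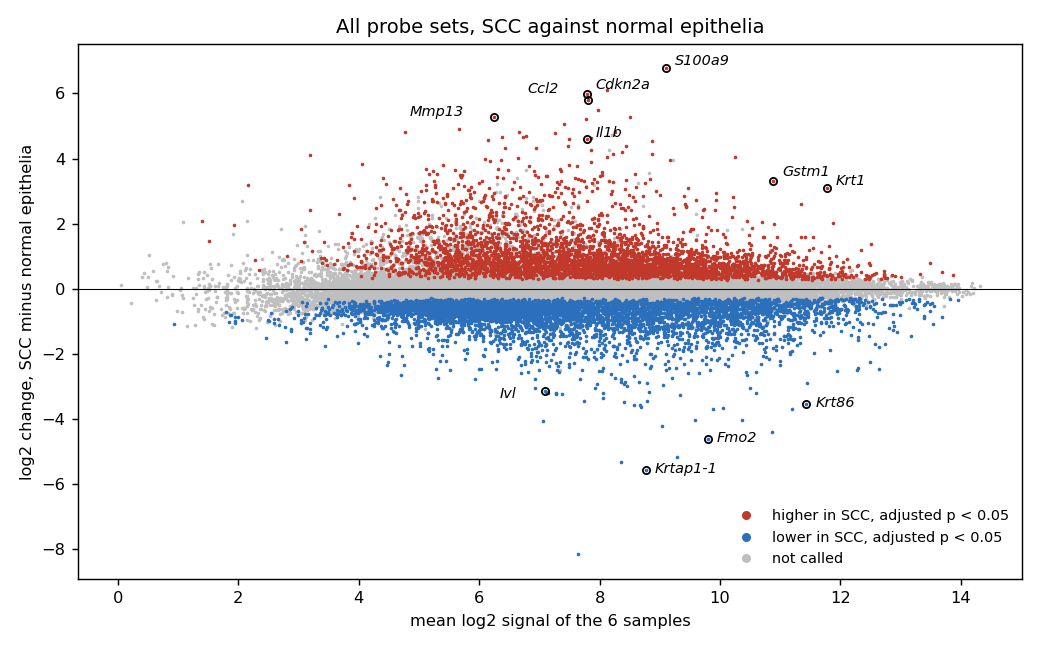
Log2 change, SCC minus normal epithelia (vertical axis), against the mean log2 signal of the 6 samples (horizontal axis) for 31042 probe sets, with those higher in SCC in red, those lower in blue (adjusted p under 0.05) and the rest in grey. The circled genes are named in the text, and the lowest point is a probe set that names no gene.

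The largest rises by the naming rule were led by S100a9, partner of S100a8 in calprotectin, a calcium-binding alarmin of neutrophils and of inflamed squamous epithelium. It read 12.37, 12.94 and 12.15 in SCC epithelia, against 5.39, 6.45 and 5.30 in normal epithelia, a change of 6.77 (SE 0.36, adjusted p = 8.16e-05), 109-fold. Cdkn2a, the locus of the cell cycle inhibitors INK4A and ARF, read 11.19, 10.43 and 10.69 in SCC epithelia, against 4.55, 4.85 and 4.98 in normal epithelia, and rose by 5.98 (SE 0.20, adjusted p = 9.66e-06), 63.0-fold. Which of the 2 transcripts its probe set reads is not given in the files. Ccl2, which draws monocytes, read 11.21, 10.78 and 10.14 in SCC epithelia, against 4.60, 4.99 and 5.12 in normal epithelia and rose by 5.81 (SE 0.34, adjusted p = 8.77e-05). Car2, a carbonic anhydrase, was at 12.05, 10.45 and 10.92 in SCC epithelia, against 5.85, 6.08 and 5.68 in normal epithelia, a rise of 5.27 (SE 0.38, adjusted p = 0.000135). In each of these 4 genes the lowest SCC sample lay more than 3 log2 units above the highest normal sample. Pou3f1, a POU transcription factor of squamous epithelium, read 8.66, 8.17 and 9.32 in SCC epithelia, against 3.70, 5.02 and 3.44 in normal epithelia and rose by 4.67 (SE 0.41, adjusted p = 0.000205).

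S100a9 had, over a narrower range, the order of the fibroblast and macrophage marker means across the SCC samples. So did Il1b (10.41, 10.61 and 9.25 in SCC epithelia) and others among the 15 largest rises. Postn and Aif1 are themselves members of those marker lists. Postn, which encodes the matrix protein periostin, was 12.01, 13.30 and 8.18 in SCC epithelia, against 4.64, 6.19 and 4.36 in normal epithelia, so that SCC epithelia 2 was highest and SCC epithelia 3 lowest. Its change was 6.10 (SE 1.17, adjusted p = 0.00546). Col12a1, a fibril-associated collagen, was 10.10, 12.20 and 7.54 in SCC epithelia, against 4.65, 5.23 and 4.78 in normal epithelia and rose by 5.06 (SE 0.96, adjusted p = 0.00524), while its other 2 probe sets did not pass the test. Cxcl13, a B cell chemokine, C1s, a serine protease of the complement cascade, and Aif1, a macrophage protein, showed the same order, with rises of 4.83, 4.37 and 4.58. The other Aif1 probe set read -0.43 (adjusted p = 0.0926). Slfn4, a Schlafen gene of myeloid cells, rose by 4.33 on its brightest probe set, while another fell by 0.52 (adjusted p = 0.0425). The part of the fibroblast and macrophage markers in these changes was not tested.

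The largest falls were led by 2 keratin-associated protein genes. Krtap1-1 was 6.12, 6.26 and 5.56 in SCC epithelia, against 11.76, 11.05 and 11.82 in normal epithelia, a change of -5.57 (SE 0.40, adjusted p = 0.000135), and its neighbour in the family Krtap1-5 was 5.74, 5.86 and 5.48 in SCC epithelia, against 11.44, 10.09 and 11.56 in normal epithelia, a change of -5.34 (SE 0.42, adjusted p = 0.000151). The keratin-associated proteins are alike in sequence, and reads of near copies on the array cannot be told apart. Fmo2, a flavin monooxygenase, was at 7.40, 7.92 and 7.19 in SCC epithelia, against 12.09, 12.26 and 11.96 in normal epithelia and fell by 4.61. The groups were at least 3 log2 units apart in these 3 genes. Lrrc15, a leucine-rich repeat membrane protein, fell by 3.68, Crym, which binds thyroid hormone, by 3.67, and Pla2g3, a secreted phospholipase, by 3.45. Asah2, the neutral ceramidase, was 6.67, 6.32 and 6.39 in SCC epithelia, against 9.56, 9.90 and 9.52 in normal epithelia and fell by 3.20. Lnx1, Kctd4, Fxyd4, Sybu, Aox4 and Efhd1 completed the 15, with changes of -3.62 to -3.18.

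**Figure D3:**
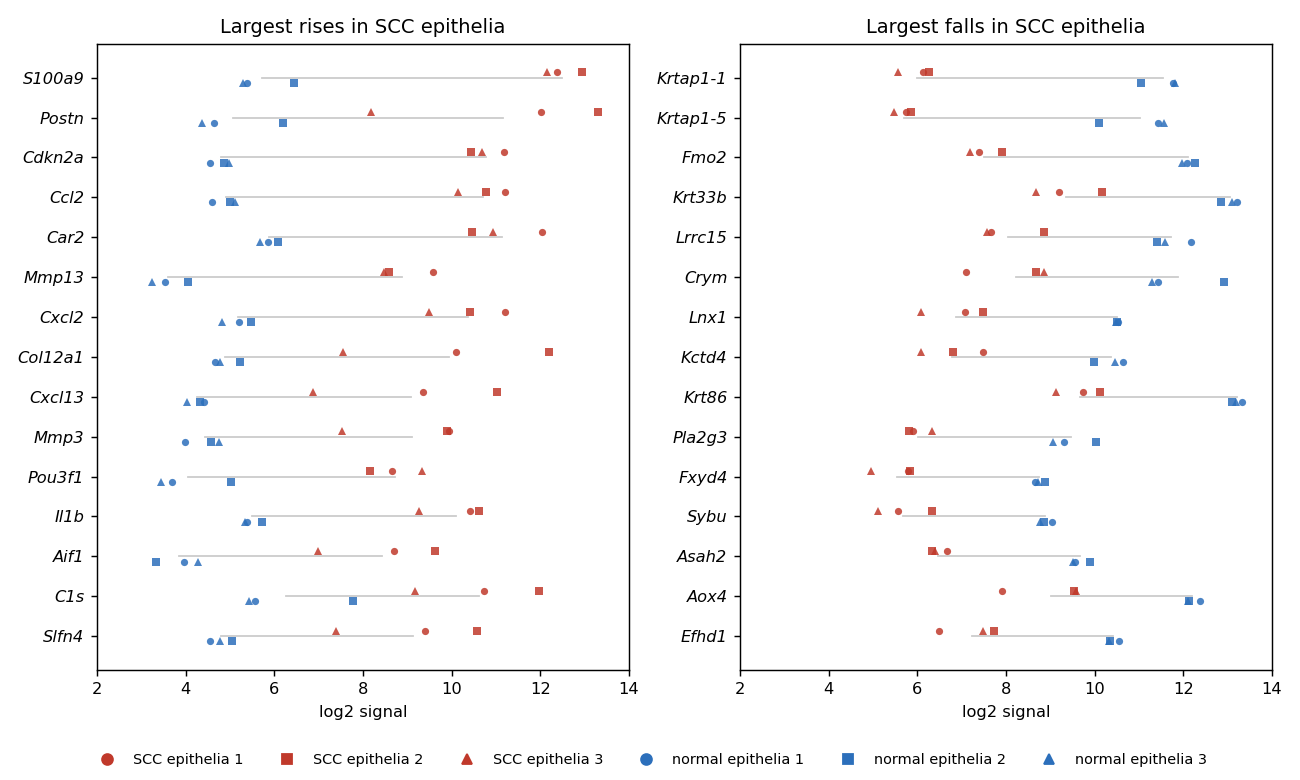
Log2 signal (horizontal axis) of the 15 largest rises (left) and the 15 largest falls (right) by the naming rule in SCC epithelia (red, upper of each pair) and normal epithelia (blue), with 1 marker shape per sample number and a grey line between the group means. The groups do not overlap in any of the 30 genes, as the rule required.

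Differentiation genes changed in both directions. Of 24 keratins 5 rose and 7 fell (median change -0.17), of 29 genes of the cornified envelope and barrier 4 rose and 10 fell (median -0.17), and of 23 desmosome and junction genes 8 fell and 15 did not pass (median -0.22, with Dsc2 counted in the envelope list). The median over all genes was -0.04. The largest keratin falls were of hair types. Krt86, a hair keratin, was 9.73, 10.13 and 9.13 in SCC epithelia, against 13.33, 13.09 and 13.20 in normal epithelia, and fell by 3.54 (SE 0.24, adjusted p = 0.000126). Krt33b, also of hair, fell by 3.71. Outside the hair types, Krt23 fell by 2.35. Krt1, the type II keratin of keratinised epidermis, was 13.52, 13.16 and 13.28 in SCC epithelia, against 9.95, 11.06 and 9.67 in normal epithelia, a rise of 3.09 (SE 0.31, adjusted p = 0.000342). Krt12, best known from cornea, rose by 2.54. Krt8, a keratin of simple epithelia, read 7.62, 6.64 and 8.07 in SCC epithelia, against 5.11, 6.0 and 5.30 in normal epithelia, a rise of 1.97 (SE 0.41, adjusted p = 0.00785). Krt15, a basal keratin, was 11.30, 11.37 and 12.05 in SCC epithelia, against 12.66, 11.22 and 12.29 in normal epithelia, with overlap and no call.

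Within the cornified envelope, Ivl, which encodes involucrin, a scaffold of the envelope, was 5.88, 4.83 and 5.84 in SCC epithelia, against 8.62, 8.53 and 8.85 in normal epithelia, a fall of 3.15 (SE 0.46, adjusted p = 0.00176). Lce1f, a late cornified envelope protein, was 11.19, 10.97 and 9.87 in SCC epithelia, against 13.20, 13.23 and 13.15 in normal epithelia and fell by 2.52. Tgm5, a transglutaminase that cross-links envelope proteins, fell by 0.90. Some envelope genes rose. Sprr2d, a small proline-rich envelope protein, was 13.09, 13.36 and 13.10 in SCC epithelia, against 11.84, 11.64 and 11.97 in normal epithelia, a rise of 1.37 (SE 0.13, adjusted p = 0.000269). Klk6, a kallikrein protease, was 11.80, 9.61 and 9.73 in SCC epithelia, against 6.75, 7.86 and 6.81 in normal epithelia and rose by 3.24 (SE 0.56, adjusted p = 0.00359), with SCC epithelia 1 above the others. Dsc2, a desmosomal cadherin counted in this list, rose by 1.03. Loricrin, a main protein of the envelope, was 13.84, 13.98 and 13.88 in SCC epithelia, against 14.13, 14.17 and 14.10 in normal epithelia, and was not called (adjusted p = 0.0916). Without SCC epithelia 2 and normal epithelia 2, 6 of the 29 genes were called lower.

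Tight junction genes made up most of the junction calls. The claudin Cldn3 was 7.42, 7.11 and 7.01 in SCC epithelia, against 9.21, 10.01 and 9.23 in normal epithelia, a fall of 2.31 (SE 0.23, adjusted p = 0.000319). Cgn, which encodes cingulin on the inner face of tight junctions, was 8.54, 8.08 and 8.28 in SCC epithelia, against 10.05, 10.19 and 10.11 in normal epithelia and fell by 1.82. Ocln, the tight junction protein occludin, fell by 1.36, and Cldn8 by 1.50. In the gap junction family Gjb5 fell by 0.76. Dsg2, a desmosomal cadherin, was 9.81, 9.19 and 9.83 in SCC epithelia, against 9.35, 8.73 and 9.22 in normal epithelia, with overlap and without a call. Cldn4 was 11.81, 11.10 and 11.45 in SCC epithelia, against 11.82, 11.99 and 11.55 in normal epithelia, with overlap.

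Of 34 squamous transcription factor and Notch pathway genes 2 rose and 10 fell (35.3% called, against 35.0% over all genes). Without SCC epithelia 2 and normal epithelia 2, 6 fell. Prdm1, a repressor that acts in the last steps of epidermal differentiation, was 10.65, 10.45 and 9.97 in SCC epithelia, against 11.89, 12.02 and 11.77 in normal epithelia, a fall of 1.54 (SE 0.19, adjusted p = 0.000856). Notch2, a Notch receptor, was 5.94, 5.74 and 5.87 in SCC epithelia, against 7.0, 6.57 and 7.0 in normal epithelia and fell by 1.01. The Notch ligand gene Dll4 fell by 0.72 (not called without SCC epithelia 2 and normal epithelia 2), Sim2 by 1.16 and the nuclear receptor gene Rora by 1.08, whose second probe set did not change past the test (0.20, adjusted p = 0.309). The 2 rises were not kept without normal epithelia 3 or without SCC epithelia 1.

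Proliferation genes rose together. Of 29 genes of DNA replication and repair 23 rose (79.3%) and 6 did not pass, with a median change of 1.06. Of 32 genes of mitosis and the spindle 23 rose (71.9%), with a median of 0.85, and 15 rose and 1 fell without SCC epithelia 2 and normal epithelia 2. The replication list averaged 8.31, 8.47 and 8.71 in SCC epithelia, against 7.60, 7.51 and 7.52 in normal epithelia. The mitosis list averaged 9.01, 9.15 and 9.51 in SCC epithelia, against 8.58, 7.95 and 8.44 in normal epithelia. SCC epithelia 3, the lowest sample for stromal and immune markers, was thus the highest for both cell cycle lists.

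The largest replication rise was of Mcm6, a subunit of the helicase that opens DNA at origins, which read 8.44, 8.72 and 9.12 in SCC epithelia, against 7.05, 6.99 and 6.66 in normal epithelia, a change of 1.86 (SE 0.20, adjusted p = 0.000482). Mcm3, another subunit, rose by 1.67 and Orc1, of the origin recognition complex, by 1.80. Rfc4, a subunit of the clamp loader, was 10.03, 9.47 and 9.63 in SCC epithelia, against 8.08, 7.71 and 8.15 in normal epithelia and rose by 1.73 (SE 0.18, adjusted p = 0.000402). Fen1, the flap endonuclease, rose by 1.61, and Uhrf1, which keeps DNA methylation through replication, by 1.52. Not every member moved. Pole, the catalytic subunit of a replicative polymerase, was 7.28, 7.43 and 7.97 in SCC epithelia, against 8.11, 7.42 and 8.35 in normal epithelia, and Mcm10 was 7.86, 7.91 and 7.81 in SCC epithelia, against 8.25, 8.02 and 8.12 in normal epithelia. Among mitotic genes Pbk, a mitotic kinase, was 8.29, 8.63 and 8.83 in SCC epithelia, against 6.86, 6.73 and 6.67 in normal epithelia, a rise of 1.83 (SE 0.17, adjusted p = 0.000271). Mad2l1, of the spindle checkpoint, rose by 1.81, and Aurka, the centrosome kinase, by 1.50.

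Promoter windows of these genes, 250 bases before to 50 after the transcription start in RefSeq (GRCr8), were searched on both strands for the E2F motif TTTNGCGC, since E2F factors drive replication genes. It was found in 12 of the 25 replication genes that had a window, 10 of them called, against 1.45% of all 27457 genes with a window (1.28% of all 33469 windows). A match is a description and not a binding site. Shown are 3 helicase subunits, each read 5′ to 3′ on the gene's strand with 25 bases on each side and 1 match in capitals. The Mcm6 window holds a further match, left in small letters. The stretch of Mcm6 lies at chr13:42404459-42404516 (minus strand, 139 bases before the start). Those of the others are chr12:22163198-22163255 for Mcm7 (minus strand, 52 before) and chr9:30733701-30733758 for Mcm3 (minus strand, 13 after).
Mcm6: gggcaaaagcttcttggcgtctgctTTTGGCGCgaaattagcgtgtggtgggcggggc
Mcm7: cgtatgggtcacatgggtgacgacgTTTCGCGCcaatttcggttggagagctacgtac
Mcm3: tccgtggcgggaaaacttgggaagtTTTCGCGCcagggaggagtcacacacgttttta

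Cell cycle inhibitors did not move as 1 group. Of 15 inhibitor and p53 target genes 3 rose and 3 fell. Beside Cdkn2a, Gadd45a, a gene induced by DNA damage, was 9.22, 9.0 and 8.67 in SCC epithelia, against 8.04, 7.85 and 8.31 in normal epithelia and rose by 0.89 (SE 0.17, adjusted p = 0.00518). Cdkn2c, which encodes INK4C, was 10.64, 10.77 and 10.88 in SCC epithelia, against 11.76, 11.87 and 11.77 in normal epithelia, a fall of 1.03, though its other probe set read -0.08 (adjusted p = 0.716). Cdkn1a, which encodes p21, the best known target of p53, was 11.42, 11.74 and 11.67 in SCC epithelia, against 12.26, 12.35 and 12.17 in normal epithelia and fell by 0.65 (SE 0.11, adjusted p = 0.0038). Ccng1, another p53 target, was 9.82, 10.19 and 10.08 in SCC epithelia, against 10.15, 8.79 and 10.14 in normal epithelia, with overlap.

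Genes of glutathione metabolism and other targets of NRF2, the transcription factor of the response to electrophiles, changed more often upwards than downwards. Of 30 measured 13 rose, 3 fell and 14 did not pass, with a median of 0.34. Gstm1, a glutathione transferase, was 12.83, 12.10 and 12.67 in SCC epithelia, against 9.43, 8.88 and 9.38 in normal epithelia, a rise of 3.30 (SE 0.27, adjusted p = 0.000162). Gsta1 was 9.42, 9.0 and 9.70 in SCC epithelia, against 6.71, 5.27 and 6.08 in normal epithelia and rose by 3.35 (SE 0.49, adjusted p = 0.00172). Glutathione transferases have near-identical copies, so which copy a probe set reads is uncertain. Gclm, the modifier subunit of the enzyme that starts glutathione synthesis, was 11.81, 10.56 and 11.53 in SCC epithelia, against 9.03, 7.76 and 8.94 in normal epithelia and rose by 2.73 (SE 0.45, adjusted p = 0.00289). Akr1b8, an aldo-keto reductase, was 12.80, 12.65 and 13.20 in SCC epithelia, against 11.02, 10.76 and 10.80 in normal epithelia and rose by 2.02, and Cbr1, a carbonyl reductase, by 1.99. Hmox1, the haem oxygenase that NRF2 also drives, went the other way, with 11.25, 11.03 and 10.30 in SCC epithelia, against 11.97, 11.90 and 11.95 in normal epithelia and a fall of 1.08 (SE 0.23, adjusted p = 0.00796). Nfe2l2, the gene of NRF2 itself, was 10.79, 11.23 and 11.24 in SCC epithelia, against 11.41, 11.45 and 11.26 in normal epithelia, without a call.

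Of 16 monooxygenase and aryl hydrocarbon receptor genes 3 rose and 7 fell, and 4 fell without SCC epithelia 2. Beside Fmo2, Cyp1b1, a cytochrome P450 that oxidises carcinogens and oestrogens, was 6.39, 7.68 and 6.24 in SCC epithelia, against 9.28, 9.48 and 9.15 in normal epithelia, a fall of 2.53 (SE 0.35, adjusted p = 0.00132). Cyp4b1 fell by 1.99. Fmo5 moved opposite to Fmo2, with 7.30, 7.93 and 6.74 in SCC epithelia, against 3.90, 4.75 and 3.88 in normal epithelia and a rise of 3.15 (SE 0.37, adjusted p = 0.000671).

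Matrix metalloproteinases, which cut collagen and other matrix proteins, included some of the largest rises. Of 14 measured 6 rose, with a median of 0.88. Mmp13, a collagenase, was 9.58, 8.59 and 8.47 in SCC epithelia, against 3.53, 4.05 and 3.24 in normal epithelia, a change of 5.27 (SE 0.30, adjusted p = 8.16e-05), 38.6-fold. Mmp3, a stromelysin, was 9.93, 9.90 and 7.52 in SCC epithelia, against 3.99, 4.56 and 4.74 in normal epithelia, with SCC epithelia 3 the lowest of the SCC samples, and rose by 4.68 (SE 0.57, adjusted p = 0.000771). Mmp12, the macrophage elastase, was 10.48, 10.17 and 8.72 in SCC epithelia, against 6.19, 6.44 and 6.25 in normal epithelia and rose by 3.49 (SE 0.44, adjusted p = 0.000909). Mmp9, a gelatinase, was 7.22, 7.51 and 7.18 in SCC epithelia, against 4.21, 4.57 and 4.36 in normal epithelia, even across the SCC samples, and rose by 2.92 (SE 0.25, adjusted p = 0.000191). Mmp10, another stromelysin, rose by 1.50. The gelatinase Mmp2 was 8.55, 11.19 and 7.03 in SCC epithelia, against 6.79, 7.54 and 6.70 in normal epithelia, following the fibroblast markers, and was not called.

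The AP-1 motif TGANTCA, read by the FOS and JUN factors and known from metalloproteinase promoters, was searched in the same windows. It was found in 5 of the 9 metalloproteinase genes with a window, 4 of them called, against 8.04% of all genes with a window (7.33% of windows). The 4 called genes are shown, with the match in capitals and 25 bases on each side. They lie on the plus strand, Mmp13 at chr8:12782738-12782794 (66 bases before the start), Mmp3 at chr8:12925185-12925241 (71 before), Mmp12 at chr8:12866540-12866596 (87 before) and Mmp10 at chr8:12974621-12974677 (61 before).
Mmp13: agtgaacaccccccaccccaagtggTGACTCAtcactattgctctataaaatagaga
Mmp3: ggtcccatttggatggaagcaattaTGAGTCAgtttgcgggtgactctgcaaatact
Mmp12: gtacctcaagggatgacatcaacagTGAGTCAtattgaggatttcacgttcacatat
Mmp10: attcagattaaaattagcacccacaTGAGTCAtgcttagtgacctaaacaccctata

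Of 21 protease, protease inhibitor and plasminogen activation genes 7 rose and 1 fell (38.1% called, against 35.0% over all genes). Serpinb7, a serpin of the upper epidermis, was 9.17, 9.0 and 8.66 in SCC epithelia, against 11.50, 11.22 and 11.24 in normal epithelia and fell by 2.38 (SE 0.18, adjusted p = 0.000135). Plaur, the urokinase receptor, was 7.23, 7.76 and 6.78 in SCC epithelia, against 5.41, 5.56 and 5.69 in normal epithelia, a rise of 1.71 (SE 0.26, adjusted p = 0.00209). Ctsz, a lysosomal cathepsin, was 9.48, 10.40 and 8.83 in SCC epithelia, against 7.04, 6.55 and 7.23 in normal epithelia and rose by 2.63 (SE 0.36, adjusted p = 0.00124). Timp1, the tissue inhibitor of metalloproteinases, was 9.81, 11.94 and 7.86 in SCC epithelia, against 6.26, 7.03 and 6.44 in normal epithelia and rose by 3.29 (SE 0.82, adjusted p = 0.0167), but the call was lost without normal epithelia 1 (adjusted p = 0.0538).

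Collagens and other matrix proteins moved with the fibroblast markers, a list that itself holds Col1a1, Col3a1 and Postn. The likeness of the 2 lists was thus partly fixed in advance. Of 38 measured 12 rose (median 1.76), but 29 rose without SCC epithelia 3, 6 without normal epithelia 1 or 3, 7 without SCC epithelia 1, and 15 without SCC epithelia 2 and normal epithelia 2, where the median was 0.98. Col1a1, of fibrillar collagen I, was 10.83, 12.87 and 8.09 in SCC epithelia, against 6.12, 9.17 and 5.84 in normal epithelia, and Col3a1 was 11.69, 13.71 and 8.21 in SCC epithelia, against 5.73, 10.56 and 5.45 in normal epithelia. Both overlapped between the groups and were not called. Col5a2, of collagen V, was 10.68, 12.17 and 10.22 in SCC epithelia, against 8.19, 7.18 and 8.40 in normal epithelia, a rise of 3.10 (SE 0.49, adjusted p = 0.00245). Ccn2, a matricellular growth factor, was 10.16, 11.36 and 7.87 in SCC epithelia, against 5.17, 7.57 and 5.01 in normal epithelia and rose by 3.88 (SE 0.89, adjusted p = 0.0118). The fibroblast marker means ran 7.20 to 11.04 over the SCC samples, and their part in these values was not tested.

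Basement membrane genes split by chain. Of 26 basement membrane and integrin genes 10 rose and 2 fell (median 0.54), with 5 higher without normal epithelia 3 and 6 without normal epithelia 2. The laminin-332 chains of the epithelial side rose. Lamb3 was 10.41, 9.55 and 10.37 in SCC epithelia, against 8.86, 8.50 and 8.86 in normal epithelia, a rise of 1.37 (SE 0.22, adjusted p = 0.00258), and Lama3 was 9.28, 8.54 and 9.43 in SCC epithelia, against 8.11, 7.58 and 8.08 in normal epithelia, a rise of 1.16 (SE 0.24, adjusted p = 0.00689). Collagen IV chains differed. Col4a6 was 5.42, 5.34 and 5.54 in SCC epithelia, against 7.36, 6.97 and 7.15 in normal epithelia and fell by 1.73 (SE 0.15, adjusted p = 0.000191), and Col4a5 fell by 1.25. Col4a1 was 9.65, 11.35 and 7.50 in SCC epithelia, against 6.03, 7.41 and 5.82 in normal epithelia and rose by 3.08 (SE 0.84, adjusted p = 0.024), a call lost without normal epithelia 1, normal epithelia 3 or SCC epithelia 1. The hemidesmosome integrin Itgb4 was 11.28, 11.07 and 11.42 in SCC epithelia, against 10.57, 10.28 and 10.36 in normal epithelia and rose by 0.85 (SE 0.14, adjusted p = 0.0025).

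Interleukin 1 beta is the cytokine that inflammasomes release. Il1b was 10.41, 10.61 and 9.25 in SCC epithelia, against 5.38, 5.73 and 5.35 in normal epithelia, a rise of 4.61 (SE 0.64, adjusted p = 0.0014), 24.4-fold. Across the SCC samples Il1b had the order of the macrophage markers, whose part was not tested. The relatives of Il1b did not share the change. Il1a was 9.15, 8.38 and 8.63 in SCC epithelia, against 9.01, 8.42 and 8.89 in normal epithelia and Il1rn, the receptor antagonist, was 8.74, 8.01 and 8.66 in SCC epithelia, against 8.17, 8.39 and 8.41 in normal epithelia, both with overlap. Of 21 genes of the interleukin 1 family and the inflammasome 3 rose and 5 fell (median -0.30, 38.1% called, against 35.0% over all genes). Il1b was the rise kept without any single array, and 1 gene rose without dysplasia epithelia 3 or any of the 3 normal samples, 5 without SCC epithelia 3. Without SCC epithelia 2 and normal epithelia 2, 3 genes of the list fell. Pycard, the adaptor ASC of inflammasomes, was 7.98, 9.0 and 8.31 in SCC epithelia, against 10.69, 10.33 and 10.81 in normal epithelia, a fall of 2.18 (SE 0.30, adjusted p = 0.00123). Casp1, which cuts pro-interleukin 1 beta, was 7.50, 8.37 and 6.19 in SCC epithelia, against 5.78, 6.03 and 5.77 in normal epithelia, a rise of 1.49 (SE 0.45, adjusted p = 0.0352) that was lost without SCC epithelia 1 (adjusted p = 0.0841) and without 5 of the other arrays. Gsdma, a pore-forming gasdermin of skin, was 9.52, 8.84 and 8.50 in SCC epithelia, against 10.86, 10.77 and 10.92 in normal epithelia and fell by 1.90. Il36b, an epithelial cytokine, was 10.30, 9.74 and 9.52 in SCC epithelia, against 11.16, 11.42 and 11.21 in normal epithelia and fell by 1.41. Il1r2, the decoy receptor, was 9.52, 9.81 and 8.14 in SCC epithelia, against 9.81, 9.73 and 10.25 in normal epithelia and was not called.

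CXC chemokines draw neutrophils or T cells. Of 19 genes of these chemokines and of neutrophil recruitment 10 rose and 9 did not pass (median 1.16), and 1 fell without SCC epithelia 2 and normal epithelia 2. The list averaged 8.28, 8.62 and 7.59 in SCC epithelia, against 6.55, 6.47 and 6.47 in normal epithelia, in the same order of the SCC samples as the macrophage markers (8.53, 9.47 and 7.22), whose part was not tested. Cxcl2 was 11.21, 10.42 and 9.48 in SCC epithelia, against 5.20, 5.48 and 4.82 in normal epithelia, a rise of 5.20 (SE 0.69, adjusted p = 0.00116), and Cxcl1 was 10.28, 9.88 and 9.05 in SCC epithelia, against 6.45, 6.51 and 5.87 in normal epithelia, a rise of 3.46 (SE 0.35, adjusted p = 0.000361). Both draw neutrophils. The interferon-induced T cell chemokines also rose. Cxcl9 was 6.92, 7.37 and 6.48 in SCC epithelia, against 3.26, 3.19 and 3.77 in normal epithelia, a rise of 3.52 (SE 0.34, adjusted p = 0.000313), and Cxcl10 was 8.04, 7.67 and 6.57 in SCC epithelia, against 3.82, 3.92 and 4.02 in normal epithelia, a rise of 3.51 (SE 0.38, adjusted p = 0.000463). Cxcl3 read 8.20, 7.66 and 7.87 in SCC epithelia, against 7.59, 7.47 and 7.68 in normal epithelia on its brightest probe set, without a call, while 2 other probe sets rose (2.11 and 1.91) and 2 fell. Cxcl14, made by normal squamous epithelium, was 10.09, 9.73 and 9.81 in SCC epithelia, against 10.31, 9.99 and 10.57 in normal epithelia, with overlap. Neutrophil markers other than the S100 genes were mixed. Of 8 such markers 3 rose and 1 fell, 1 rose without normal epithelia 2, 2 without normal epithelia 1 or 3, and the fall was not called without SCC epithelia 2 and normal epithelia 2. Cxcr2, the receptor of these chemokines, was 8.16, 7.22 and 7.62 in SCC epithelia, against 7.75, 7.05 and 8.0 in normal epithelia, and Mmp8, a neutrophil collagenase, was 4.51, 4.18 and 4.25 in SCC epithelia, against 4.13, 4.70 and 4.09 in normal epithelia, both with overlap between the groups.

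The NF-kappaB motif, GGG, any 3 bases and TTCC, was found on either strand in the windows of 5 of 15 CXC genes, 4 of them called, and of 4 of 13 CC chemokine genes, 2 of them called, against 5.77% of all genes with a window (5.37% of windows). The 3 called genes with the best known roles are shown, with 1 match in capitals where windows hold several, overlapping or apart. Cxcl1 lies at chr14:17479371-17479430 (minus strand, 84 bases before the start), Cxcl2 at chr14:17467295-17467354 (minus strand, 74 before) and Cxcl10 at chr14:15988854-15988913 (plus strand, 187 before).
Cxcl1: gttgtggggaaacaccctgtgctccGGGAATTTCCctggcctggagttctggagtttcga
Cxcl2: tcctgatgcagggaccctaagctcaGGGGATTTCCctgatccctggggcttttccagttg
Cxcl10: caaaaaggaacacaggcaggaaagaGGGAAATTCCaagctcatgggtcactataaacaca

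Of 18 CC chemokine genes 8 rose (median 1.06). The list averaged 7.39, 7.47 and 6.70 in SCC epithelia, against 5.77, 5.99 and 5.80 in normal epithelia, again in the SCC order of the macrophage markers. Beside Ccl2, the epithelial chemokine Ccl20, which draws dendritic cells and Th17 cells, was 9.17, 9.28 and 10.05 in SCC epithelia, against 6.30, 6.22 and 6.22 in normal epithelia, a rise of 3.25 (SE 0.22, adjusted p = 0.000126), and was highest in SCC epithelia 3. Ccl3 was 10.22, 9.40 and 8.60 in SCC epithelia, against 5.98, 6.28 and 6.01 in normal epithelia, a rise of 3.32 (SE 0.55, adjusted p = 0.00302). Ccl17, which draws CCR4-bearing T cells, was 8.48, 8.06 and 7.71 in SCC epithelia, against 5.95, 6.17 and 5.76 in normal epithelia and rose by 2.13 (SE 0.19, adjusted p = 0.000232). Ccl7 was 7.40, 9.49 and 5.63 in SCC epithelia, against 5.08, 5.41 and 5.24 in normal epithelia, high in SCC epithelia 2, with an adjusted p of 0.0501.

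Of 33 cytokine genes and targets of STAT3 and NF-kappaB 13 rose (median 0.90), and the list averaged 7.78, 8.48 and 7.43 in SCC epithelia, against 6.85, 7.01 and 6.83 in normal epithelia, in that order too. Icam1, the adhesion molecule that leukocytes bind, was 8.86, 9.05 and 8.82 in SCC epithelia, against 6.99, 6.74 and 6.96 in normal epithelia, a rise of 2.02 (SE 0.14, adjusted p = 0.000135), with little spread in either group. Il24 was 7.42, 7.28 and 8.02 in SCC epithelia, against 5.82, 5.88 and 5.65 in normal epithelia and rose by 1.79 (SE 0.27, adjusted p = 0.0019). Il6 was 7.17, 7.14 and 5.32 in SCC epithelia, against 4.16, 4.51 and 4.15 in normal epithelia, a rise of 2.27 (SE 0.53, adjusted p = 0.0128), which was not called without SCC epithelia 2 and normal epithelia 2. Lcn2, lipocalin 2, was 7.97, 11.61 and 6.58 in SCC epithelia, against 4.95, 5.58 and 4.75 in normal epithelia, far the highest in SCC epithelia 2 but above the normal samples in all 3, and its call (change 3.63) was lost without each of the 3 normal samples in turn.

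In prostanoid synthesis 7 of 27 genes rose and 6 fell. Ptgs2, the inducible cyclooxygenase COX2, was 9.70, 8.97 and 8.86 in SCC epithelia, against 5.61, 4.80 and 6.26 in normal epithelia, a rise of 3.62 (SE 0.43, adjusted p = 0.000671), 12.3-fold. Ptgs1, the constitutive cyclooxygenase, was 10.36, 9.42 and 9.65 in SCC epithelia, against 8.53, 7.30 and 8.58 in normal epithelia and rose by 1.68 (SE 0.38, adjusted p = 0.0113), while its other probe set read 0.43 (adjusted p = 0.321). Alox12, a lipoxygenase of squamous epithelium, was 9.92, 9.76 and 9.05 in SCC epithelia, against 10.75, 10.97 and 10.97 in normal epithelia and fell by 1.32. Ptger3, a receptor of prostaglandin E2, fell by 1.03, and Pla2g4e, which frees fatty acids from phospholipids, rose by 1.01.

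Of 23 S100 and antimicrobial genes 7 rose and 5 fell, and 3 fell without SCC epithelia 2 and normal epithelia 2. S100a8 was 12.26, 12.61 and 11.97 in SCC epithelia, against 7.91, 8.51 and 8.27 in normal epithelia, a rise of 4.05 (SE 0.24, adjusted p = 9.39e-05). S100a3, known from the hair cuticle, was 6.92, 7.17 and 6.84 in SCC epithelia, against 10.12, 9.10 and 10.0 in normal epithelia and fell by 2.76 (SE 0.29, adjusted p = 0.000436). S100a4, found in fibroblasts and leukocytes, was 10.84, 11.52 and 9.70 in SCC epithelia, against 8.17, 8.07 and 8.32 in normal epithelia and rose by 2.50 (SE 0.37, adjusted p = 0.00188).

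Interferon response and antigen presentation genes rose together with the macrophage markers, a list that also holds Cd74. Of 31 interferon response genes 19 rose (61.3%, median 1.20), and of 22 genes of the MHC and the immunoproteasome 16 rose (72.7%, median 1.26). Without SCC epithelia 2 and normal epithelia 2 the counts were 17 and 14, and 1 gene of the MHC list fell. Ifitm1, an antiviral membrane protein, was 10.88, 11.60 and 10.33 in SCC epithelia, against 6.88, 6.58 and 6.91 in normal epithelia, a rise of 4.14 (SE 0.28, adjusted p = 0.000126). Isg15, a ubiquitin-like protein, was 9.10, 9.97 and 7.89 in SCC epithelia, against 5.76, 5.98 and 5.88 in normal epithelia and rose by 3.11 (SE 0.44, adjusted p = 0.00151). Irf1, a transcription factor induced by interferon gamma, rose by 2.59 and Gbp2, a guanylate-binding protein, by 3.68. Psmb8, a subunit of the immunoproteasome, was 8.87, 9.59 and 8.12 in SCC epithelia, against 5.33, 5.50 and 5.34 in normal epithelia, a rise of 3.47 (SE 0.37, adjusted p = 0.000447). Cd74, the invariant chain of class II molecules, was 11.51, 12.25 and 11.09 in SCC epithelia, against 9.41, 7.46 and 9.55 in normal epithelia, a rise of 2.82 (SE 0.52, adjusted p = 0.00472), and lowest in normal epithelia 2. The class II gene RT1-Da was 11.52, 12.04 and 10.89 in SCC epithelia, against 9.44, 7.80 and 9.69 in normal epithelia and rose by 2.50. RT1 genes have near-identical copies, and the assignment of a probe set to 1 of them is uncertain. The macrophage marker means, 7.22 to 9.47 in SCC epithelia and 6.02 to 6.24 in normal epithelia, moved with these genes, and their part was not tested.

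**Figure D4:**
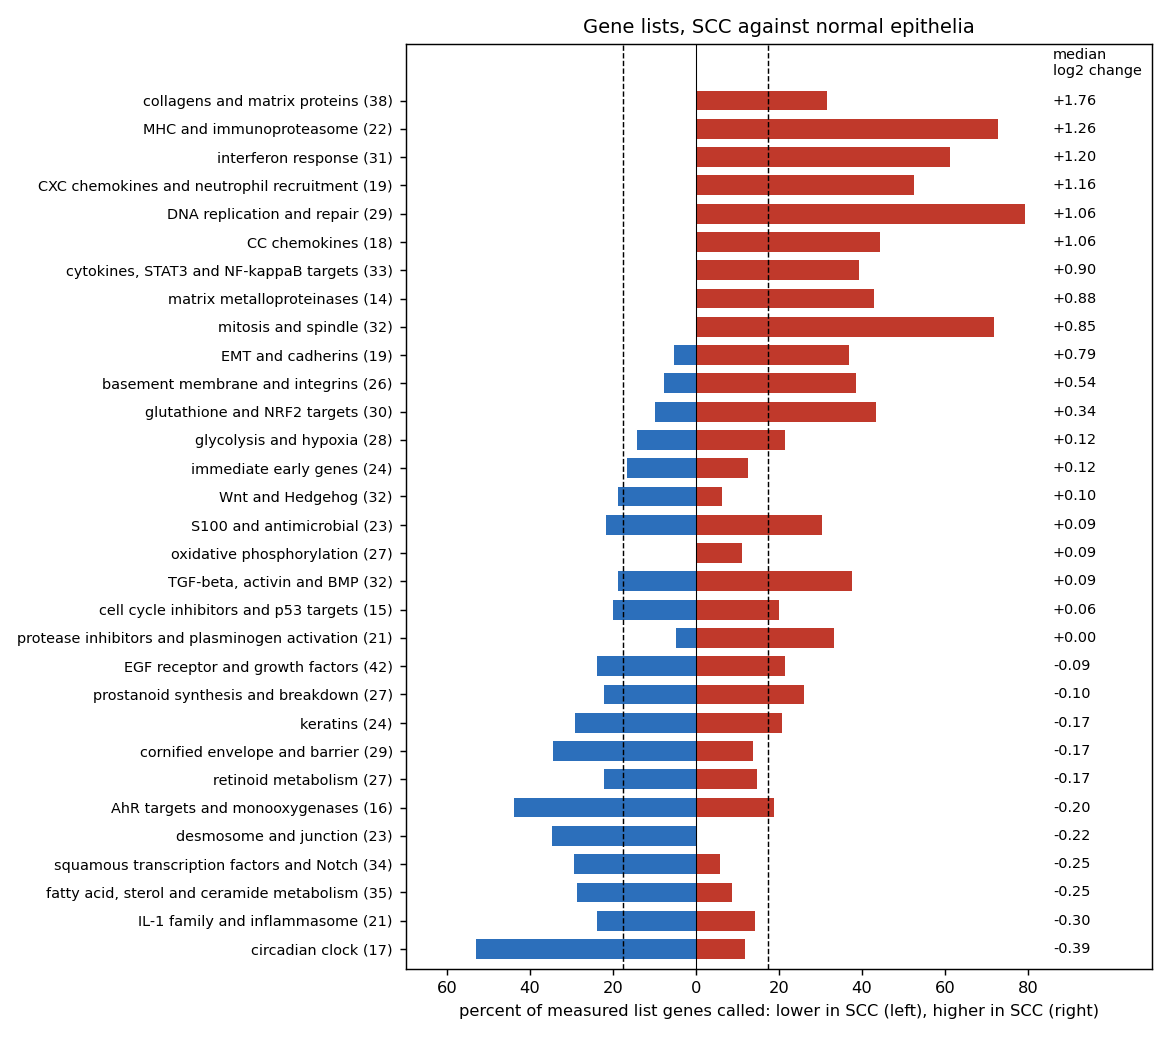
Percent of measured genes called higher (red, to the right) and lower (blue, to the left) in SCC epithelia for each gene list (number measured in parentheses), with the median log2 change at the right edge and dashed lines at the shares over all genes (17.3% higher, 17.6% lower). DNA replication (79.3% called, all higher) reaches furthest to the right, and lists are sorted by their median.

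A pair of ligands of the EGF receptor rose. Areg, which encodes amphiregulin, was 10.20, 9.81 and 9.80 in SCC epithelia, against 6.94, 7.34 and 7.42 in normal epithelia, a rise of 2.70 (SE 0.20, adjusted p = 0.000136), and Hbegf, heparin-binding EGF, was 9.47, 8.87 and 8.77 in SCC epithelia, against 6.90, 6.84 and 6.95 in normal epithelia, a rise of 2.14 (SE 0.19, adjusted p = 0.000221). Of 42 genes of the EGF receptor and growth factor list 9 rose and 10 fell. Fgf22, a fibroblast growth factor, was 7.10, 6.94 and 6.58 in SCC epithelia, against 9.25, 9.62 and 9.65 in normal epithelia and fell by 2.63 (SE 0.21, adjusted p = 0.000158). Spry4, a feedback inhibitor of receptor tyrosine kinases, was 8.74, 8.39 and 8.21 in SCC epithelia, against 10.05, 10.24 and 10.11 in normal epithelia and fell by 1.69. Vegfc, the lymphatic growth factor, rose by 1.48. Vegfa was 9.99, 9.21 and 9.04 in SCC epithelia, against 8.63, 9.84 and 8.61 in normal epithelia, with overlap.

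Of 32 genes of the TGF-beta, activin and BMP pathways 12 rose and 6 fell, with 4 higher without normal epithelia 1 or 3, 6 without SCC epithelia 1 or 2, 7 without normal epithelia 2, 3 lower without normal epithelia 1 or SCC epithelia 1, and 6 higher without SCC epithelia 2 and normal epithelia 2. Inhbb, which encodes the activin B subunit, was 8.27, 8.69 and 8.15 in SCC epithelia, against 5.63, 5.77 and 5.52 in normal epithelia, a rise of 2.73 (SE 0.16, adjusted p = 8.16e-05). Bambi, a decoy receptor that dampens BMP and TGF-beta signals, was 9.19, 9.90 and 10.25 in SCC epithelia, against 11.48, 12.33 and 11.33 in normal epithelia, a fall of 1.93 (SE 0.32, adjusted p = 0.00273). Tgfb2 was 7.62, 7.42 and 7.02 in SCC epithelia, against 9.49, 9.21 and 9.48 in normal epithelia and fell by 2.04 on its brightest probe set, while another probe set rose by 1.18 (adjusted p = 0.0398), so no direction is given for the gene.

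Of 19 genes of the epithelial-mesenchymal transition and cadherin list 7 rose and 1 fell, 4 rose without SCC epithelia 1 or 2 or normal epithelia 1 or 3, and the fall was not called without SCC epithelia 2 and normal epithelia 2. Cdh3, P-cadherin of basal cells, was 11.04, 10.72 and 10.89 in SCC epithelia, against 9.36, 8.91 and 9.39 in normal epithelia, a rise of 1.67 (SE 0.16, adjusted p = 0.00028). Pdpn, which encodes podoplanin, a glycoprotein of basal cells at invasive fronts, was 10.19, 10.70 and 10.37 in SCC epithelia, against 7.36, 7.04 and 7.90 in normal epithelia, a rise of 2.99 (SE 0.22, adjusted p = 0.000135). Both were evenly high in the 3 SCC samples. Vim, the mesenchymal filament vimentin, was 11.59, 12.80 and 9.82 in SCC epithelia, against 7.60, 10.14 and 7.65 in normal epithelia, in the order of the fibroblast markers and with overlap, and its call (change 2.94) was lost without normal epithelia 1 (adjusted p = 0.0893).

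Of 32 Wnt and Hedgehog genes 2 rose and 6 fell, and with spike-in alignment 1 rose and 1 fell. Lef1, a transcription factor of the Wnt pathway, was 7.28, 8.80 and 9.17 in SCC epithelia, against 10.48, 10.32 and 10.24 in normal epithelia, a fall of 1.93 (SE 0.41, adjusted p = 0.00893). Smo, the signal transducer of the Hedgehog pathway, was 8.95, 8.98 and 9.26 in SCC epithelia, against 8.01, 8.41 and 8.01 in normal epithelia and rose by 0.92 (SE 0.15, adjusted p = 0.00263). Without normal epithelia 1, 2 genes fell, and 3 fell without normal epithelia 2 or 3 or without SCC epithelia 1. Without SCC epithelia 2 and normal epithelia 2, 4 rose and 3 fell.

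Of 24 immediate early genes 3 rose and 4 fell (29.2% called, against 35.0% over all genes). Without SCC epithelia 2 and normal epithelia 2, 1 rose and 2 fell. Fosl1, which encodes the AP-1 subunit FRA1, was 9.55, 9.27 and 9.35 in SCC epithelia, against 7.38, 7.57 and 7.54 in normal epithelia, a rise of 1.90 (SE 0.12, adjusted p = 9.77e-05). Its relative Fosl2 was 8.01, 7.77 and 7.79 in SCC epithelia, against 8.45, 8.45 and 8.45 in normal epithelia and fell by 0.59. Fos was 12.32, 10.25 and 11.28 in SCC epithelia, against 8.74, 10.38 and 9.23 in normal epithelia, spread over more than 1 log2 unit in each group, and was not called. Dusp5, a phosphatase of the ERK kinases, fell by 1.23, and Egr3 by 0.97, neither called without SCC epithelia 2 and normal epithelia 2.

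Of 17 circadian clock genes 9 fell and 2 rose (median -0.39), 1 of the 2 without SCC epithelia 2 and normal epithelia 2, and no source used here gives the time of day at which tissue was taken. Dbp, a clock output factor, was 7.18, 8.14 and 7.25 in SCC epithelia, against 8.70, 9.16 and 8.93 in normal epithelia, a fall of 1.41 (SE 0.26, adjusted p = 0.00498). Its relative Tef was 7.72, 8.47 and 8.12 in SCC epithelia, against 8.93, 9.57 and 9.13 in normal epithelia and fell by 1.11, and Nr1d2, of the REV-ERB repressors, fell by 1.05. Nfil3, which opposes Dbp on DNA, was 9.69, 9.63 and 9.33 in SCC epithelia, against 8.29, 7.75 and 8.67 in normal epithelia and rose by 1.32 (SE 0.22, adjusted p = 0.00325). The core gene Clock was 11.06, 10.93 and 11.02 in SCC epithelia, against 10.98, 10.69 and 10.98 in normal epithelia, with overlap.

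Of 28 glycolysis and hypoxia genes 6 rose and 4 fell (35.7% called, against 35.0% over all genes). The count of falls was 1 without normal epithelia 2, and 2 without any other single array of the 2 groups except SCC epithelia 2. Without SCC epithelia 2 and normal epithelia 2 together, 2 genes fell. Slc16a3, a lactate exporter, was 8.93, 8.45 and 8.47 in SCC epithelia, against 7.09, 6.86 and 7.06 in normal epithelia, a rise of 1.62 (SE 0.16, adjusted p = 0.000342). Slc2a1, the glucose transporter GLUT1, was 12.09, 11.52 and 11.74 in SCC epithelia, against 10.81, 10.51 and 10.66 in normal epithelia and rose by 1.12 (SE 0.18, adjusted p = 0.00234), and Hk2, a hexokinase, rose by 1.08. Egln3, an oxygen-sensing hydroxylase, was 9.84, 9.75 and 9.65 in SCC epithelia, against 10.71, 10.76 and 10.51 in normal epithelia and fell by 0.91. Oxidative phosphorylation genes barely moved. Of 27 measured 3 rose (median 0.09), led by Sdhb of complex II with a rise of 0.93, and 1 rose without normal epithelia 1 or without SCC epithelia 2 and normal epithelia 2.

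Of 35 genes of fatty acid, sterol and ceramide metabolism 3 rose and 10 fell (median -0.25), with 5 higher without SCC epithelia 3. The share called was 37.1%, against 35.0% over all genes. Scd, which puts a double bond into fatty acids, was 9.74, 9.96 and 10.20 in SCC epithelia, against 7.96, 7.82 and 8.09 in normal epithelia, a rise of 2.01 (SE 0.14, adjusted p = 0.000135). Plin2, a coat protein of lipid droplets, was 9.98, 10.23 and 9.57 in SCC epithelia, against 7.78, 7.39 and 7.92 in normal epithelia and rose by 2.23 (SE 0.23, adjusted p = 0.000367). Idi1, of the sterol pathway, was 11.65, 11.54 and 11.48 in SCC epithelia, against 13.19, 12.65 and 13.25 in normal epithelia and fell by 1.47 (SE 0.16, adjusted p = 0.000461). Of the ceramide genes Smpd3 fell by 1.25 and Cers4 by 1.36.

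Of 27 retinoid genes 4 rose and 6 fell (37.0% called, against 35.0% over all genes). Rarres1, induced by retinoic acid, was 9.12, 9.93 and 10.08 in SCC epithelia, against 11.57, 12.38 and 11.49 in normal epithelia, a fall of 2.10 (SE 0.31, adjusted p = 0.00173). Lrat, which stores retinol as ester, was 6.62, 6.99 and 6.46 in SCC epithelia, against 5.30, 5.49 and 5.06 in normal epithelia and rose by 1.41 (SE 0.20, adjusted p = 0.00137). Cyp26b1, which breaks retinoic acid down, was 10.57, 9.81 and 10.36 in SCC epithelia, against 11.11, 11.91 and 10.92 in normal epithelia and fell by 1.07, a call lost without SCC epithelia 2.

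The dysplasia epithelia, from rats on the same 4NQO regime, stand between the 2 groups in stage. The dysplasia comparison shares its normal samples with the SCC comparison, so the values are given side by side and no overlap of the 2 is counted. Cdkn2a was 4.55, 4.85 and 4.98 in normal epithelia, 10.44, 10.77 and 10.57 in dysplasia epithelia and 11.19, 10.43 and 10.69 in SCC epithelia, so that the dysplasia and SCC samples overlapped. Krt1 (9.95, 11.06 and 9.67 in normal, 13.42, 13.36 and 13.17 in dysplasia and 13.52, 13.16 and 13.28 in SCC epithelia) and Gstm1 (9.43, 8.88 and 9.38 in normal, 13.04, 12.36 and 13.20 in dysplasia and 12.83, 12.10 and 12.67 in SCC epithelia) likewise had dysplasia samples at the SCC level. Other genes were at their extreme only in SCC. Mmp13 was 3.53, 4.05 and 3.24 in normal epithelia, 5.45, 5.38 and 5.24 in dysplasia epithelia and 9.58, 8.59 and 8.47 in SCC epithelia, without overlap between any 2 stages. S100a9 was 5.39, 6.45 and 5.30 in normal, 11.07, 10.18 and 10.34 in dysplasia and 12.37, 12.94 and 12.15 in SCC epithelia, again without overlap.

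Il1b was 5.38, 5.73 and 5.35 in normal epithelia, 9.16, 6.33 and 7.11 in dysplasia epithelia and 10.41, 10.61 and 9.25 in SCC epithelia. The dysplasia samples were the most spread, with dysplasia epithelia 1 close to SCC epithelia 3. Among falls, Krtap1-1 was 11.76, 11.05 and 11.82 in normal, 7.85, 9.52 and 8.59 in dysplasia and 6.12, 6.26 and 5.56 in SCC epithelia, without overlap. Ivl was 8.62, 8.53 and 8.85 in normal, 5.23, 7.03 and 6.89 in dysplasia and 5.88, 4.83 and 5.84 in SCC epithelia, where dysplasia epithelia 1 lay within the SCC range. Pycard was 10.69, 10.33 and 10.81 in normal, 8.78, 9.37 and 9.66 in dysplasia and 7.98, 9.0 and 8.31 in SCC epithelia, and dysplasia overlapped with SCC. The replication list had a median change of 0.98 in dysplasia against normal and 1.06 in SCC against normal. For the metalloproteinase member Mmp10 the dysplasia values, 5.21, 4.72 and 4.77, were within or below the range of normal epithelia, while SCC epithelia had 7.45, 6.52 and 5.99.

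**Figure D5:**
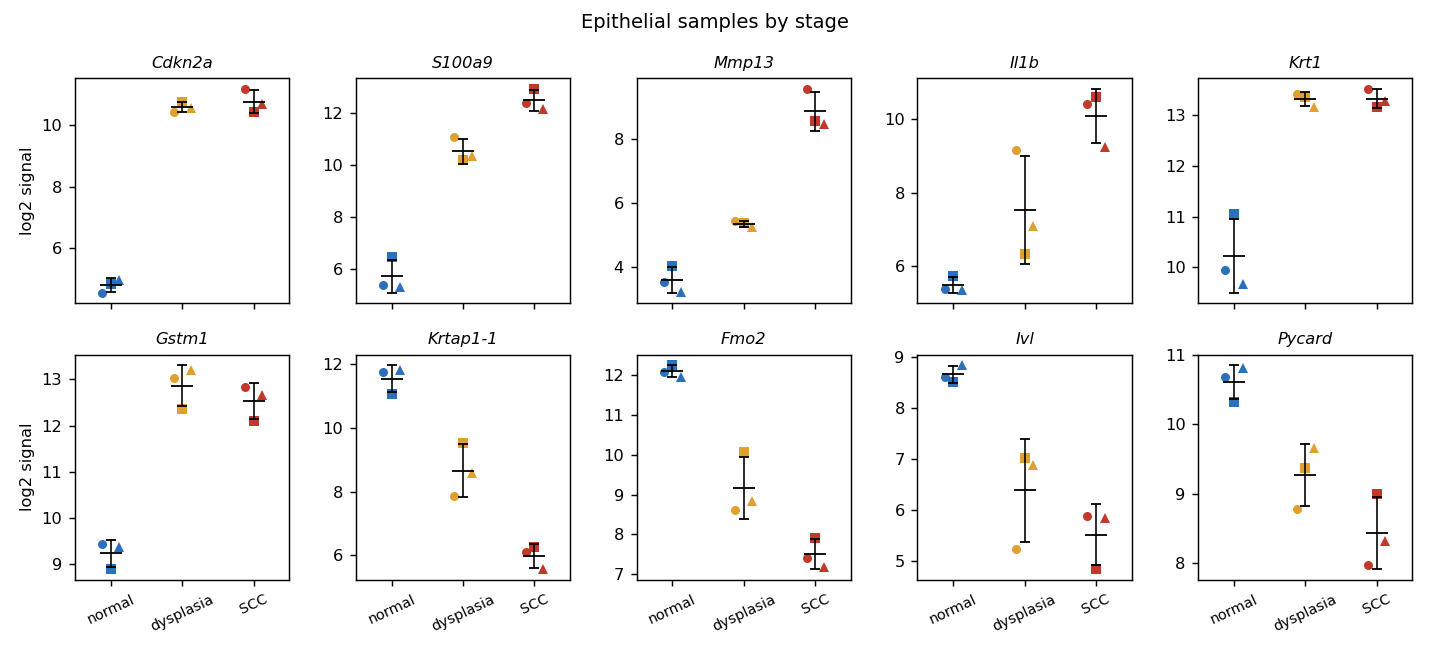
Log2 signal (vertical axes, each panel with its own range) of 10 genes by stage (horizontal axes), with 1 point per epithelial sample (circle, square and triangle for samples 1, 2 and 3) and a black bar with whiskers for the mean and SD of the 3 samples. Cdkn2a, Krt1 and Gstm1 are at the SCC level in dysplasia, while Mmp13 and Krtap1-1 have dysplasia samples between the other 2 stages.

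In the fibroblasts of the underlying connective tissue, measured on 6 more arrays, the SCC minus normal change differed from that in the epithelia for 5126 probe sets (16.5%), more positive in the epithelia for 2210 (7.12%) and more negative for 2916 (9.39%). The fibroblast samples also read markers of other cells. In normal fibroblasts the macrophage marker Lyz2 was 14.19, 14.12 and 13.16 and Tyrobp 12.43, 12.15 and 10.64. The epithelial marker Krt15 was 12.47, 12.63 and 10.82 there, while Cldn1 was lower (6.59, 6.55 and 7.41). The change in a layer may thus include these cells, whose part was not tested. Cdkn2a, with fibroblast values of 10.35, 9.16 and 8.20 in SCC and 4.97, 4.84 and 4.41 in normal tissue, was higher in SCC in the samples of both layers. Ccl2 was 12.87, 12.81 and 13.32 in SCC fibroblasts, against 12.81, 12.75 and 13.46 in normal fibroblasts. The difference of its change between the layers was 5.82 (limma adjusted p = 6.19e-06). Ccl2 was already high in normal fibroblasts, so a rise of the epithelial size could hardly show there.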

How the data were processed

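RNA of 18 pooled samples, 3 per stage and layer, was hybridised to Affymetrix rat expression arrays. The authors deposited 1 table of linear signal intensities (lowest value 1), for which RMA and the Affymetrix Expression Console are named in the notes of the submitters, with versions and background correction not given in the sources used here. For a differentially expressed gene the methods ask for a detection P under 0.05 and do not say whether the table was filtered on it. RMA fits probes of a set together and equalises the arrays, so a shift shared by most genes would be removed. The number of arrays limits the precision.

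The intensities were taken to log2 without a further normalization. The 57 control probe sets were left out, and 31042 of 31099 probe sets were tested with limma 3.58.1 in R 4.3.3 (lmFit and eBayes, default settings) on the 9 epithelial arrays, with Benjamini-Hochberg adjustment over all probe sets and the contrast SCC minus normal epithelia. The difference of this contrast between epithelia and fibroblasts was fitted over all 18 arrays. Of the probe sets 20826 named 1 gene, 436 several and 9780 none, by the platform annotation. For counts of genes and lists, each of 14217 genes was read on the probe set with the highest mean over the 9 epithelial arrays. Tables were made with Python 3.11.15, pandas 2.3.3 and numpy 2.4.6, figures with matplotlib 3.10.9. The fit was tested on simulated data.

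Named genes were the 15 largest rises and 15 largest falls that were called, did not overlap, reached a mean of 7 in the higher group and kept their call without each single array of the 6, and up to 6 called members of each list with the largest change and a few uncalled ones, together with the genes of the study's primers. The members and lists were chosen with earlier results of these data known. Promoter windows came from RefSeq (GRCr8), 250 bases before to 50 after the start. Alternatives were a floor of 5, a limit of 7 on the mean, quantile normalization, alignment on 18 spike-in probe sets, a fit of all 18 arrays or of the 2 groups only, the replicate number as a block, trend and robust variance, array weights, the methods' t-test, 1 probe set per gene, a fold of at least 2 and leaving out each array. Leaving out SCC epithelia 2 and normal epithelia 2 together, and a fold of at least 1.5, were added after the data were seen.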

Additional observations from a re-analysis of the deposited data

Results flagged for a closer look

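For 46 genes, the 15 largest rises, the 15 largest falls and those of the study's primers, the change in SCC against normal epithelia was set against the same change in the fibroblasts of the underlying tissue, in 1 limma fit of all 18 arrays (values below are epithelial minus fibroblast change on the log2 scale, with adjusted p). Of all probe sets 16.5% were called for this difference, and 34 of the 46 genes were, but the genes were chosen for large epithelial changes, so nothing is read from that share. The primer genes were picked by the study among genes that differed in its own experiments, these samples among them, so they are not independent of these data.

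Rises that were larger in the epithelia included the chemokines Ccl2 (5.82, adjusted p = 6.19e-06), Cxcl2 (4.29, 0.00266) and Cxcl13 (5.55, 0.0334), and the matrix genes Postn (6.19, 0.00614) and Col12a1 (4.51, 0.0195). In fibroblasts Postn was high at both stages. The alarmin gene S100a9 differed by 5.14 (8.66e-06), the complement protease gene C1s by 4.85 (0.00189), Mmp3 by 3.67 (0.0122), the macrophage gene Aif1 by 3.58 (0.0183), Pou3f1 by 3.34 (0.000544), Il1b by 2.91 (0.0164), Icam1 by 2.31 (2.88e-05) and Ptgs2 by 2.20 (0.0168). Normal fibroblasts were already high for Cxcl2 (13.4, 13.2 and 12.2), S100a9 (12.1, 11.9 and 12.6) and Il1b (12.4, 12.2 and 11.2), less so for Pou3f1 (7.7, 7.7 and 8.3). They were high too for Ccl2 (12.81, 12.75 and 13.46), C1s (13.4, 13.3 and 13.2) and Mmp3 (12.1, 11.9 and 10.4). A rise of the epithelial size could hardly show from such levels. The fibroblast samples also read macrophage and epithelial markers, whose part in these values was not tested. Il1b still rose in SCC fibroblasts, by 1.70 (limma adjusted p = 0.00696).

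Falls that were larger in the epithelia were led by keratin-associated protein genes and Fmo2. Krtap1-1 differed by -5.25 (9.28e-05), Krtap1-5 by -5.10 (5.83e-05), Krt33b by -3.37 (0.00155) and Krt86 by -2.81 (0.00159). In normal fibroblasts Krtap1-1 (5.0, 4.6 and 5.0) and Krtap1-5 (5.2, 4.4 and 5.1) were already low, so a fall of the epithelial size could not show there. Low normal fibroblast values limit the comparison likewise for Fxyd4 (4.6, 4.8 and 4.6) and Pla2g3 (5.9, 5.4 and 5.5). The same holds for Asah2 (6.1, 5.6 and 5.9) and Kctd4 (5.2, 5.8 and 6.1). Fmo2 differed by -5.00 (7.64e-05), Pla2g3 by -3.29 (9.64e-05), Lrrc15 by -3.18 (0.0063), Fxyd4 by -3.02 (0.000283), Crym by -2.89 (0.023), Lnx1 by -2.87 (0.0127), Kctd4 by -2.74 (0.00912), Sybu by -2.72 (0.000266), Asah2 by -2.46 (0.00115) and Efhd1 by -2.21 (0.00197).

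In the primer list Il1r2, the decoy receptor of interleukin 1, differed by -4.16 (0.000178), with a change of -0.77 in epithelia and 3.38 in fibroblasts. Gsdma differed by -1.88 (0.00272), Hmox1 by -1.79 (0.00205), Il1rap by -1.77 (9.97e-05), Tgfb2 by -1.70 (0.00135, on a probe set that another contradicts), Glrx by -1.63 (0.000643) and Anxa9 by -1.26 (0.0177). Cdkn2a, Car2 and Mmp13 were high in SCC fibroblasts too, and their difference was not called.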

How the results depend on the processing

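No called result turned round under any alternative. Against 9267 probe sets called, the methods' t-test called 4631, 1 probe set per gene 4969, an added fold of at least 2 left 2502, and the fit without SCC epithelia 2 and normal epithelia 2, chosen after the data were seen, called 5675, of which 5182 were also called with all samples. Against 3898 higher probe sets the t-test gave 1706 and the fit without those 2 samples 2537. Against 5369 lower ones, the limit on dim probe sets gave 3406, spike-in alignment 3222, the t-test 2925 and the fit without those 2 samples 3138. The limit on dim probe sets, which tests fewer of them, left 1551 of the 2762 at a fold of at least 2, and a fold of at least 1.5, also added after the data were seen, passed 7025. Of 797 list genes 362 were called, and 170 by the t-test. Leaving out each array in turn gave 6435 to 9131 called probe sets, 2793 to 3841 higher, 3642 to 5486 lower, 2567 to 3208 at a fold of at least 2 and 283 to 374 list genes, and 5282 probe sets were called each time. Of 225 called genes among 373 examined, 181 kept their call without each single array. The t-test ended 108 of these calls, the floor 30, the fit without those 2 samples 30, the fit of 2 groups 28, the fit of 18 arrays 18 (among them Sprr2d, Cldn8, Gjb5, Sim2, Smpd3, Mmp10 and Pla2g4e), leaving out 1 array 9 to 36, and each of the other settings 13 or fewer. Otherwise the cause of these shifts was not tested.

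Same-numbered SCC and normal samples had correlations of deviations of -0.09, 0.18 and 0.15, against -0.25 to 0.22 for other numbers. So few values, taken as deviations from means of 3 samples, cannot tell whether the numbers pair the samples. With the replicate block 8174 probe sets were called, 3518 higher and 4656 lower, 2806 passed the fold of at least 2, and 355 list genes were called.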
